A study of Mus musculus with 2 samples.

Results

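The vascular endothelial growth factor (VEGF) family was measured in astrocytes sorted from the ischemic cortex with and without voluntary running. The family was taken as 9 genes listed by name, with earlier results of these data known: the ligands Vegfa, Vegfb, Vegfc and Pgf, the receptors Flt1, Kdr and Flt4, and the co-receptors Nrp1 and Nrp2. A named probe set was used for 8 of the 9, and each of these genes had 1 probe set among the 19494 genes named on the arrays. Nrp1 was not analysed here, because the annotation used paired no probe set with it, so the neuropilins are represented by Nrp2 alone.

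Both groups were male C.B-17/Icr-+/+Jcl mice, 7 weeks old, whose middle cerebral artery had been occluded permanently (MCAO) and which had received BrdU, a label of newborn cells, in the first days after surgery. All mice had been acclimatized to a running wheel beforehand. The MCAO + exercise group then had a running wheel for 15 days, the MCAO + non-exercise group had none, and there was no group without MCAO on the arrays. On postoperative day (POD) 15, cells bearing astrocyte cell surface antigen-2 (ACSA-2) were collected from the ipsilateral cortices with magnetic beads, and the RNA of several sorts, each of more than 1 mouse, was mixed into 1 pool per group and measured on 1 Clariom S array. These 2 arrays are called the exercise array and the non-exercise array after their labels. With 1 array per group, nothing could be tested, and the values carry no error.

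VEGF-A, VEGF-B and placental growth factor (Pgf) bind the receptor tyrosine kinase Flt1, VEGF-A signals mainly through Kdr, and VEGF-C acts on Flt4 and, once processed, on Kdr. The neuropilins lack a kinase of their own and bind VEGFs as well as semaphorins, the guidance cues of growing axons. In the brain, astrocytes and neurons release VEGF-A when oxygen is short, through the hypoxia-inducible factors, and the receptors are found mostly on endothelial cells, where they control permeability and vessel growth.

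Of the 4 listed ligands, the 2 whose values differed most between the arrays were Vegfa and Vegfb, and their promoters are shown for that reason. The sequences are the 250 bases before the annotated start, from RefSeq on GRCm38.p6, which held promoters for all 9 genes, and of the 2 starts listed for Vegfa the upstream one was taken. Capitals mark the GC box, GGGCGG, which the factor Sp1 binds, and the core of the hypoxia response element, ACGTG or GCGTG, each sought on both strands.
Vegfa, chr17:46032378-46032627, minus strand: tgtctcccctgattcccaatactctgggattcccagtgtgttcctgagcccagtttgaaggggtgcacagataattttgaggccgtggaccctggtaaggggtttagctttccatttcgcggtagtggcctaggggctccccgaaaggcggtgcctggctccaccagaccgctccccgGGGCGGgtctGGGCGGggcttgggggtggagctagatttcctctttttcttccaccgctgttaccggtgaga
Vegfb, chr19:6987652-6987901, minus strand: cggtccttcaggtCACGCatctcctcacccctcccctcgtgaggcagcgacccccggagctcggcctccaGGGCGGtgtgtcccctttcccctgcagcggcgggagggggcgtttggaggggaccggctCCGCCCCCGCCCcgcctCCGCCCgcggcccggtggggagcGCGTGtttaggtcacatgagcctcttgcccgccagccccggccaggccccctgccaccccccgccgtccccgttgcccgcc
The Vegfa window held 2 GC boxes, which began 72 and 62 bases before the start, and 0 matches to the hypoxia core. The window before the other Vegfa start, which is not printed, held 1 GC box, 158 bases before it, and 2 hypoxia cores, 218 and 211 bases before it. That window lies within the annotated gene, downstream of the printed start, so its letters are also transcribed ones and its matches may not be promoter elements. The Vegfb window held 4 GC boxes, of which the middle ones touch, and 2 hypoxia cores, 237 and 81 bases before the start. Of 32851 promoter windows of this length in the table, 32.7% held a GC box and 38.6% a hypoxia core, so both words are common. Sites further upstream than 250 bases were not sought, so 0 matches does not mean that a gene lacks the element. A match describes the letters, and no binding was measured.

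All 8 genes were above background on both arrays. The background was the 25th percentile over named probe sets, a log2 value of 5.08 on the non-exercise array and of 4.89 on the exercise array, and 15196 genes were above it on at least 1 array and were kept. Intensities are normalized and linear unless log2 is stated, and levels are compared for 1 gene between arrays, not between genes, since probe sets differ in brightness. Each difference is the log2 value on the exercise array minus that on the non-exercise array, and a gene was called higher or lower when its difference passed 1 or -1, a 2-fold change. The directions follow the deposited labels. They are opposite to those in the study's gene tables for Vegfa and for the other genes with values here that those tables list, Aldoc, Slc1a3, Vtn, Mobp, Camk2a and Ms4a7. The study also examined Vegfa itself and Lcn2, a gene outside the family, by qPCR, and Lcn2 by staining. Those measurements bear on the direction and were not analysed here. If the labels of the arrays were exchanged, every sign below would turn and every size would stay.

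**Figure D1:**
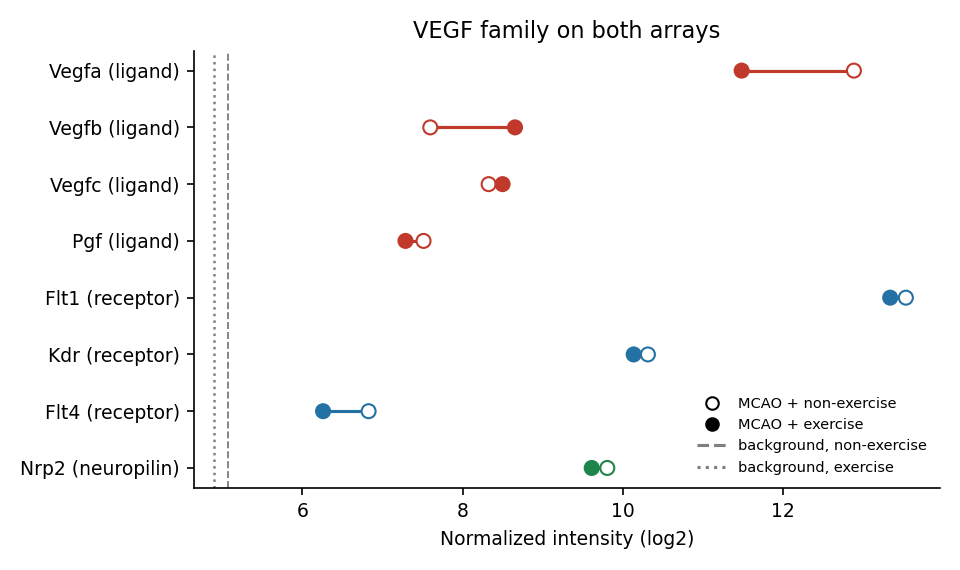
Normalized intensity on the log2 scale of the 8 measured VEGF family genes on the non-exercise array (open circles) and the exercise array (filled circles), coloured by role, with each array's background as a grey line. Vegfa and Vegfb lie far apart on the arrays and in opposite order, whereas Flt1, Kdr and Nrp2 nearly coincide.

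Among the ligands, Vegfa was lower and Vegfb was higher on the exercise array, each by more than 2-fold, and Vegfc and Pgf differed little. Of the 8 genes, 1 was called higher and 1 lower, and by sign alone 2 were higher and 6 lower. Over all kept genes, 3.77% were called higher, 2.36% lower and 6.13% either way, while 53.5% had a difference above 0 and 46.4% one under 0. The balance of calls turned with the scale, from 573 higher and 359 lower to 433 and 575 after median centring and 403 and 99 with an offset of 32 before log2. Median centring here set the array medians over kept genes equal. It did not centre the differences, whose median went from 0.04 as deposited to -0.07.

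Vegfa, the main angiogenic and permeability factor of the family, had an intensity of 7553 on the non-exercise array and 2859.6 on the exercise array. These are log2 values of 12.88 and 11.48, a difference of -1.40, or 2.64-fold lower with exercise by label. The difference was the 70th lowest of the 15196 kept genes, and 0 of the 500 other kept genes nearest to Vegfa in mean level passed -1. Those 500 had a median of 0.15.

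Vegfb, a ligand of Flt1 linked to cell survival rather than to vessel sprouting, had an intensity of 193.5 on the non-exercise array and 402.7 on the exercise array, log2 values of 7.60 and 8.65. Its difference of 1.06, a 2.08-fold change, lay close to the threshold. It ranked 493 from the highest of all kept genes, and 20 of its 500 neighbours in mean level had higher differences. After median centring the difference was 0.95, but this step left the median over all kept genes at -0.07. It was 0.99 after quantile normalization, 0.97 after a loess correction and 0.95 with an offset of 32 before log2. The call was lost under each of these while the direction stayed.

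Vegfc, which drives the growth of lymphatic vessels, had intensities of 320.7 without and 361.7 with exercise, a log2 difference of 0.17. Pgf, which is induced in injured tissue, had intensities of 182.6 and 156.2, a log2 difference of -0.23. Both lay between the quartiles of all kept genes, -0.29 and 0.36. The distance between Vegfa and Vegfb, the difference of one minus that of the other, was -2.46 on the log2 scale. Such a distance does not change when either array is scaled by a constant.

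The remaining mammalian VEGF ligand, Vegfd, was on a list of relatives and not among the 9 genes. It acts on Flt4, and its log2 values were 7.62 on the non-exercise array and 6.20 on the exercise array, a difference of -1.43 close to that of Vegfa but at a level nearer to background. With the offset of 32 its difference was -1.12.

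**Figure D2:**
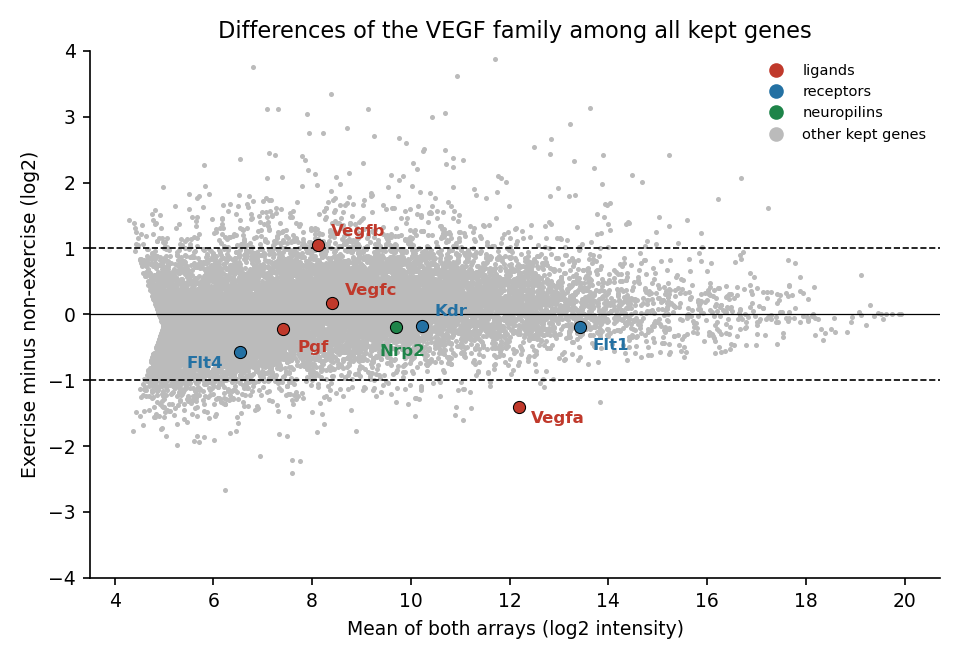
Difference between the arrays (log2, MCAO + exercise minus MCAO + non-exercise) against the mean log2 intensity of both, for 15196 kept genes (grey) and the VEGF family (coloured by role), with dashed lines at the threshold; 3 genes beyond 4 are not drawn. Vegfa stands below the cloud at its level, Vegfb lies at the upper dashed line inside it, and the receptors and Nrp2 lie within the cloud below 0.

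The receptors were all slightly lower on the exercise array and none was called. Flt1, the decoy-like receptor that binds VEGF-A tightly and also binds VEGF-B and Pgf, had intensities of 11837 without and 10336 with exercise. On the log2 scale these are 13.53 and 13.34, a difference of -0.20. Kdr, the main signalling receptor for VEGF-A, had intensities of 1271 and 1124, log2 values of 10.31 and 10.13 and a difference of -0.18. These amount to 1.15-fold and 1.13-fold lower signals.

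Flt4, the receptor of lymphatic endothelium, had intensities of 113.5 without and 76.6 with exercise, log2 values of 6.83 and 6.26. Its difference of -0.57, or 1.48-fold lower, was the lowest among the receptors, and its probe set was the one of the 8 nearest to background, 1.36 above it on the log2 scale on the exercise array. Of the 500 genes nearest to Flt4 in level, 86 had lower differences and 6.6% were called, with quartiles of -0.42 and 0.24. For Flt1, which is bright, 77 of 500 had lower differences than its -0.20 and 7% were called, with quartiles of -0.07 and 0.43.

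Nrp2, the neuropilin that binds VEGF-C and several semaphorins, had intensities of 894.6 on the non-exercise array and 781.9 on the exercise array. Its log2 difference was -0.19. Flt1, Kdr and Nrp2 thus had nearly equal differences, within 0.018 of each other. Like Vegfc and Pgf, all of them lay between the quartiles of all kept genes, -0.29 and 0.36. The sizes moved with the scale, to between -0.40 and -0.37 after quantile normalization and between -0.37 and -0.34 after loess, where the genes lay within 0.030 and 0.033 of each other.

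Set against each other, the 4 listed ligands went apart, whereas the receptors had the same sign and small differences. Flt1 and Kdr lay between the quartiles of all kept genes, as Vegfc and Pgf did, and Flt4 lay below them. Vegfd, outside the list with a difference of -1.43, is not counted here, and counting it would lower the median of the ligands. Ligands spanned 2.46 on the log2 scale, with 2 higher and 2 lower and a median of -0.03, whereas receptors spanned 0.39, with 3 of 3 lower and a median of -0.20. The median over all kept genes was 0.04. The median of the ligands rests on Vegfc and Pgf and does not describe Vegfa or Vegfb. Taken pair by pair, as the difference of the ligand minus that of the receptor, the gap was -1.21 for Vegfa and Flt1 and -1.22 for Vegfa and Kdr. For the other ligands of Flt1 the gap was 1.25 for Vegfb and -0.03 for Pgf. Vegfc and Flt4 gave 0.74, with Vegfc at 0.17 and Flt4 at -0.57. Differences were also computed on 4 other scales (median centring, quantile normalization, loess and the offset of 32). All 8 genes kept their sign on each of them, and Vegfa stayed past -1, between -1.60 and -1.39.

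**Figure D3:**
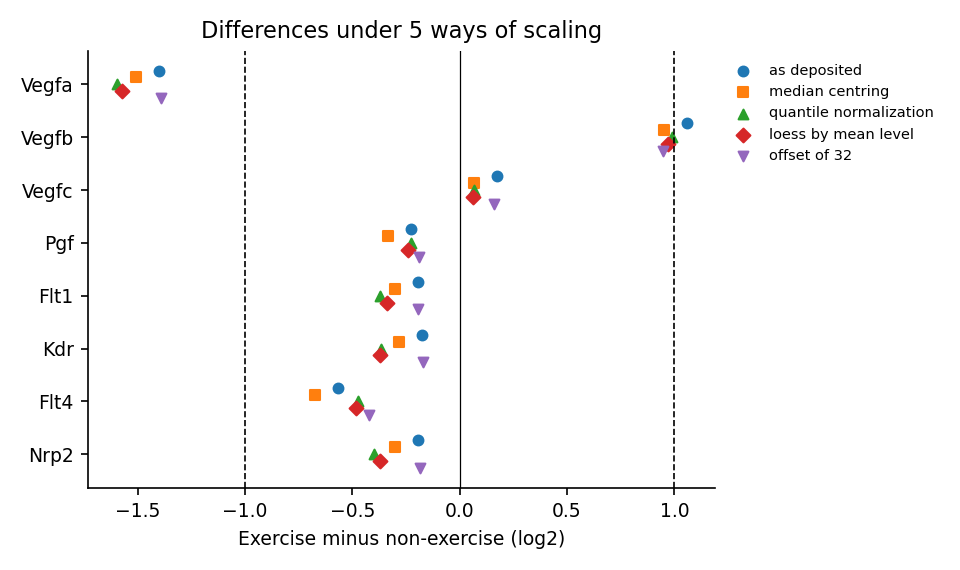
Difference between the arrays (log2, MCAO + exercise minus MCAO + non-exercise) of the 8 VEGF family genes with the values as deposited and on 4 other scales, each with its own marker; dashed lines mark the threshold. Vegfa stays between -1.60 and -1.39, Vegfb moves between 0.95 and 1.06 across the threshold, and Flt1, Kdr, Flt4 and Nrp2 stay below 0.

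The wider pathway was described through lists of genes around the VEGF family, which held 103 named genes of which 97 were kept. Of the 97, 48 were higher and 49 lower, 2 were called higher and 5 lower, and the median was -0.02. The share called was 7.22%, near the 6.13% of all kept genes.

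Hypoxia sensing, which controls Vegfa transcription, went both ways, with 5 of 10 genes higher and 5 lower and a median of -0.04. Egln1, a prolyl hydroxylase that marks hypoxia-inducible factors for destruction, was called higher, with log2 values of 10.74 and 11.85 and a difference of 1.11. On other scales it was 0.89 after quantile normalization, 0.92 after loess and 1.00, just short of the threshold, after median centring. Arnt2, a partner subunit of these factors, had a difference of 0.81. The oxygen-regulated subunits Hif1a and Epas1 had differences of -0.21 and -0.28, and Hif1an, which blocks their activity, one of -0.49.

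Extracellular proteins that process or bind VEGFs were 2 higher and 6 lower of 8 kept, with a median of -0.25 and 0 called. The thrombospondins Thbs1 and Thbs2, which restrain angiogenesis, had differences of -0.74 and -0.72. Ptn, the growth factor pleiotrophin, had 0.56, and Sparc, a matrix protein that binds VEGF-A, 0.04. Among the platelet-derived growth factors and their receptor Pdgfrb, relatives of the VEGF system, all 5 kept genes were higher than 0 but none was called. Of these 5, 2 were lower after median centring or quantile normalization and 3 after loess. The other receptor, Pdgfra, had no named probe set. Pdgfc had a difference of 0.72, Pdgfa 0.47 and Pdgfd 0.01.

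Receptor partners and phosphatases were 4 higher and 5 lower, with 0 of 9 called and a median of -0.12. Ptprb, an endothelial phosphatase that dampens Kdr and Tek, had the lowest difference among them, -0.75, followed by Ptpn1, which removes phosphate from Kdr, at -0.50. The integrin subunits Itgav and Itgb3 had 0.27 and 0.25.

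Semaphorins of class 3 and the plexins through which they signal with the neuropilins were mostly lower on the exercise array. Of 12 kept genes, 9 were lower and 3 higher, 2 were called lower, and the median was -0.45. Plxna2 had log2 values of 9.08 and 7.89 and a difference of -1.19. Sema3g, a semaphorin of endothelial cells that binds Nrp2, had values of 8.10 and 7.07 and a difference of -1.03, which was -0.88 with the offset. Plxna4, which works with Nrp1 in axon repulsion, went the other way at 0.46, and Sema3e, which binds Plxnd1 without a neuropilin, at 0.23.

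Signal transducers downstream of Kdr were 24 higher and 11 lower of 35 kept, with a median of 0.17 and 1 called in each direction. Plcg1, the phospholipase recruited by activated Kdr, had log2 values of 11.53 and 10.39 and a difference of -1.15. Fyn, a kinase of the Src family, had values of 8.97 and 10.09 and a difference of 1.12, which was 0.95 after quantile normalization or loess. Pla2g4a, a phospholipase that releases arachidonic acid, had 0.94, and the adaptor Sh2d2a -0.65. After median centring, quantile normalization or loess, 20 were higher and 15 lower, a smaller excess of higher genes.

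Genes that VEGF-A is known to induce in endothelium were 5 higher and 9 lower of 14 kept, with a median of -0.17 and 1 called. Angpt2, which destabilizes vessels through Tek, had log2 values of 7.35 and 6.27 and a difference of -1.09, which was -0.84 with the offset. Rcan1, a brake on calcineurin, had -0.77, whereas the vasodilator Adm had 0.52 and the Notch ligand Dll4 0.36. The list was split 7 and 7 after quantile normalization.

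Angiopoietins and their Tie receptors, the other vascular ligand and receptor system, were lower in 4 of 4 genes. Besides Angpt2, the receptor Tek had a difference of -0.65, the receptor Tie1 -0.57 and the ligand Angpt1 -0.55, with a median of -0.61. All 4 stayed below 0 on each of the other scales. Here all ligands and receptors had the same sign. Of the 4 listed VEGF ligands, Vegfa and Pgf shared the sign of the VEGF receptors, and Vegfb and Vegfc did not.

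**Figure D4:**
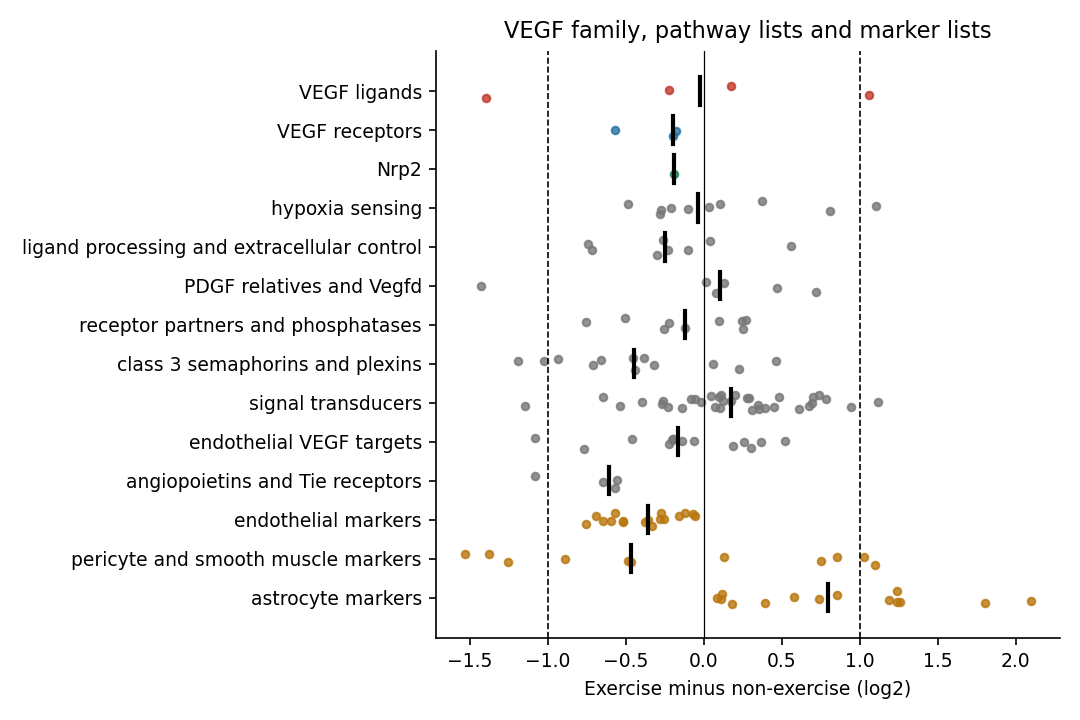
Difference between the arrays (log2, MCAO + exercise minus MCAO + non-exercise) of each kept gene, as points, with list medians as black bars and dashed lines at the threshold, for the VEGF family, pathway lists (grey) and marker lists (brown). The 4 listed VEGF ligands spread from -1.40 to 1.06 and receptors lie from -0.57 to -0.18. Endothelial markers all lie below 0 and astrocyte markers all above it.

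Endothelial markers were measured in the sorted pools and, like the receptors, were lower on the exercise array. Of the list, Cdh5, Ptprb, Tek and Tie1 also stand on the pathway lists. All 17 kept markers were above background on both arrays, and none had a level at or near 0. All 17 were lower on the exercise array, from -0.75 for Ptprb and -0.69 for the sialomucin Emcn to -0.07 for the glucose transporter Slc2a1 and -0.06 for the junction protein Ocln, with a median of -0.36 and 0 called, and all 17 stayed below 0 on each other scale. Their summed level on the log2 scale was 18.28 without and 18.07 with exercise. Flt1 and Kdr lay inside this range, with 13 of the 17 markers lower than either, and Flt4 did too, with 5 lower. Vegfa, at -1.40, was below all 17. The median of the receptors, -0.20, also lay near that of the microglia markers, -0.17, of which 5 were higher and 9 lower of 14. In pooled RNA, fewer cells of a type and less RNA per cell cannot be told apart. The part of endothelial or microglial RNA in the receptor values was not tested.

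Lymphatic markers, which bear on Flt4, did not share its direction as a list. Prox1, a transcription factor of lymphatic endothelium that other brain cells also express, had a difference of 0.67 and Lyve1, which macrophages express too, 0.77, while Pdpn had -0.23 and Ccl21a -0.36. Their summed level was 10.95 without and 11.40 with exercise, and it rests mostly on Prox1, with log2 values of 10.08 and 10.75. Markers of pericytes and smooth muscle were split, 5 higher and 6 lower of 11, with a median of -0.47 and summed levels of 15.93 and 16.71. These sums rest mostly on Vtn, with log2 values of 15.38 and 16.40, and do not describe the list. The contractile genes Acta2 and Myh11 had -1.53 and -1.38 and Cspg4 -1.26, whereas Abcc9 and Vtn had 1.10 and 1.03.

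Astrocyte markers were all above background on both arrays and went against Vegfa. Passing background does not check the sorted cell type, since all kept endothelial, microglia and oligodendrocyte markers passed it too. As deposited, all 14 astrocyte markers were higher on the exercise array, with a median of 0.80, and 6 of them by more than 1. Of these 14, 12 were higher after median centring and 11 after quantile normalization or loess. Gpr37l1, an astrocytic receptor, had a difference of 2.10 and S100b 1.80. The glutamate transporter Slc1a3 had 1.26, the glycolytic enzyme Aldoc and the water channel Aqp4 1.24 each and the transcription factor Sox9 1.18, while the glutamate transporter Slc1a2 and the bicarbonate transporter Slc4a4 had 0.11 and 0.08. The summed level of the astrocyte markers was 17.16 without and 17.79 with exercise. That of the microglia markers was 20.37 and 20.15, and that of the oligodendrocyte markers 19.39 and 20.22. Such sums rest on the brightest probe sets and do not measure the share of a cell type, so the purity of the sort was not measured. The difference of Vegfa minus the median of the astrocyte markers was -2.20, and that of Vegfb minus the same median was 0.26, with 8 of the 14 markers lower than Vegfb. Which cells of the pools carried Vegfa or Vegfb RNA was not measured.

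The genes most like Vegfa, taken as the 3 kept genes above background on both arrays with the nearest difference, were Tafa1 at -1.40, Gm20831 at -1.40 and Pate12 at -1.40, each within 0.00599 of it. With 2 arrays this likeness rests on 1 difference per gene.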

How the data were processed

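The authors had the RNA pools measured on Clariom S mouse arrays by a contracted service, which normalized them with GCCN-SST-RMA (correction for probe GC content, rescaling and summarization by probe set). Affymetrix Expression Console and RMA are named, with no version, in the submitters' processing notes. The deposited intensities covered 22142 probe sets on a linear scale, and their log2 was used as it stood. A platform annotation named 19527 probe sets, 2615 stayed unnamed, and symbols were updated by gene ID. The brightest probe set stood for a gene. The study's negative control was not used here, so a percentile background replaced it. The threshold for a call follows the study's methods. A single array per group allowed no test, and the precision is limited by the number of arrays. None of the 8 genes had the same value on both arrays or shared values with another probe set.

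The members and lists were chosen with earlier results of these data known. Named were all members, and in each pathway list the genes past the threshold and the 2 highest and 2 lowest differences, likewise for astrocyte and vascular markers, with the highest and lowest for other markers. Hif1a was named after its value was seen. Alternatives were a background at the 10th percentile or required on both arrays, no filter, median centring, quantile normalization, loess (span 0.3), an offset of 32 and averaging probe sets of a gene. Median centring set the array medians over kept genes equal and did not centre the differences. Computation used Python 3.11.15, NumPy 2.4.6, pandas 2.3.3, statsmodels 0.14.6 and matplotlib 3.10.9.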

Additional observations from a re-analysis of the deposited data

How the results depend on the processing

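Over 8 alternatives, the differences of all 8 VEGF family genes kept their sign. Vegfa stayed past the threshold (-1.60 to -1.39), and Vegfb fell short of it under 4 (0.95 to 0.99). Filters and the averaging of probe sets could not move these genes. The median of ligands minus that of receptors ranged from 0.17 to 0.29, the median of receptors from -0.37 to -0.20 and Nrp2 from -0.40 to -0.19. Of all kept genes, 359 were lower by more than 1, against 230 with a background passed on both arrays, 575 after median centring and 99 with an offset of 32, and 573 were higher, against 516, 433 and 403. The median of the list of platelet-derived growth factor genes and Vegfd was below 0 under 3 alternatives (0.10 as deposited), and that of its 5 genes without Vegfd under loess (-0.0061, against 0.13 as deposited). No paired analysis was possible because each group had 1 array.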

Other observations

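Markers of other cell types went in different directions, and those counted here were above background on both arrays except 1 neuron and 1 neutrophil marker. Of 19494 named genes, 15196 passed background on at least 1 array, so passing it does not show that a cell type was present. All 9 kept oligodendrocyte markers lay above 0 (exercise array minus non-exercise array, log2), with a median of 0.82, from 0.60 for the myelin protein Mbp to 2.06 for Mobp. Of 6 kept markers of oligodendrocyte precursors, 4 were higher and 2 lower (median 0.68), from -1.26 for the proteoglycan Cspg4 to 1.25 for the receptor Gpr17. Of 10 kept neuron markers, 8 were higher and 2 lower (median 1.08), from -1.60 for the synaptic vesicle gene Syt1 to 3.13 for the kinase Camk2a. Microglia markers were 5 higher and 9 lower of 14 (median -0.17), from -0.62 for the adaptor Tyrobp to 0.69 for Tmem119. Macrophage markers were split 3 and 3 (median -0.04), from -1.04 for Ms4a7 to 0.46 for the scavenger receptor Cd163. Of 7 kept neutrophil markers, 5 were higher and 2 lower (median 0.89), from -0.54 for the granule enzyme Mpo to 2.83 for Ngp. Several of these cell types express VEGF family genes, and their part in the members' values was not tested.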
